A study of Mus musculus with 14 samples.

Results

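Inhibitory receptors set a brake on microglia, the resident macrophages of the retina, and this account follows 8 genes of that brake: Cd72, Sirpa, Cd33, Siglech, Lilrb4a and Cd200r1, which encode receptors, Cd47, which encodes a ligand, and Ptpn6, which encodes a phosphatase. They were taken by name from the authors' gene table and matched by gene identifier to the count table of each library. All 8 were found among 47729 gene identifiers, and all 8 were among the 14279 that passed a filter on low counts. The list was drawn up with earlier results of these data known, in particular those of Cd72 and Sirpa in microbead retinas, so the microbead values below describe the genes and are not an independent test of them.

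Most receptors of this kind carry a short tyrosine motif, the ITIM, in their tail. Src family kinases phosphorylate it, and it then recruits phosphatases such as SHP-1, the product of Ptpn6, which dampen signals from activating receptors. SIRPα, the product of Sirpa, reads CD47 on other cells as a signal not to engulf them, and CD200R1 reads CD200, a protein abundant on neurons. Not every receptor in the list has an ITIM: Siglec-H and CD200R1, for example, lack one, and Siglec-H pairs with the activating adaptor DAP12.

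The libraries were made by SMART-Seq2, which copies whole transcripts from small numbers of cells, and the cells were CD11b+, Ly6c-, Fcrls+ microglia sorted from retinas of wild type C57BL/6 mice aged 12 weeks. The 14 libraries, each from 1 retina, formed 4 groups: 3 retinas injected with microbeads, which the labels call glaucoma, 3 retinas contralateral to such an injection, 4 sham-injected retinas and 4 naive retinas with no treatment. A retina gave 100 to 600 cells, and no measure of eye pressure or nerve damage was used here. Nothing in the labels says which retinas shared a mouse, so p-values measure the spread between these libraries.

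Libraries held 1.34 to 14 M reads. In microbead 1 reads fell in 10209 genes and in contralateral 2 in 10337, the only libraries under 12000. Of 12 microglia markers all 12 had reads, with a summed level of 17655 to 35672 CPM (reads scaled to library size with TMM factors) in the microbead libraries, 28020 to 40114 in the contralateral, 34412 to 38563 in the sham and 23632 to 36046 in the naive libraries. Short transcripts stood higher relative to long ones in microbead libraries. The median log2 level of 863 genes of at most 1000 bases minus that of 1328 genes of over 4000 bases, both relative to naive, was 0.79 to 1.90 in the microbead libraries. In the contralateral libraries it was -0.28 to 0.87, in the sham libraries -0.05 to 0.15 and in the naive libraries -0.28 to 0.16. Log2 fold changes with this trend removed are given beside several genes below.

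Cd72 and Sirpa moved in opposite directions in microglia of microbead retinas. Cd72 rose 5.86-fold against sham and 6.91-fold against naive retinas, whereas Sirpa fell to 499 CPM in microbead retinas, against 1624 CPM in naive retinas. Cd33 was lower in every microbead library than in every sham or naive library without passing the test, and Siglech, Cd47 and Ptpn6 overlapped between microbead and both of those groups. In these bulk samples, fewer cells of a kind and less RNA per cell cannot be told apart.

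**Figure D1:**
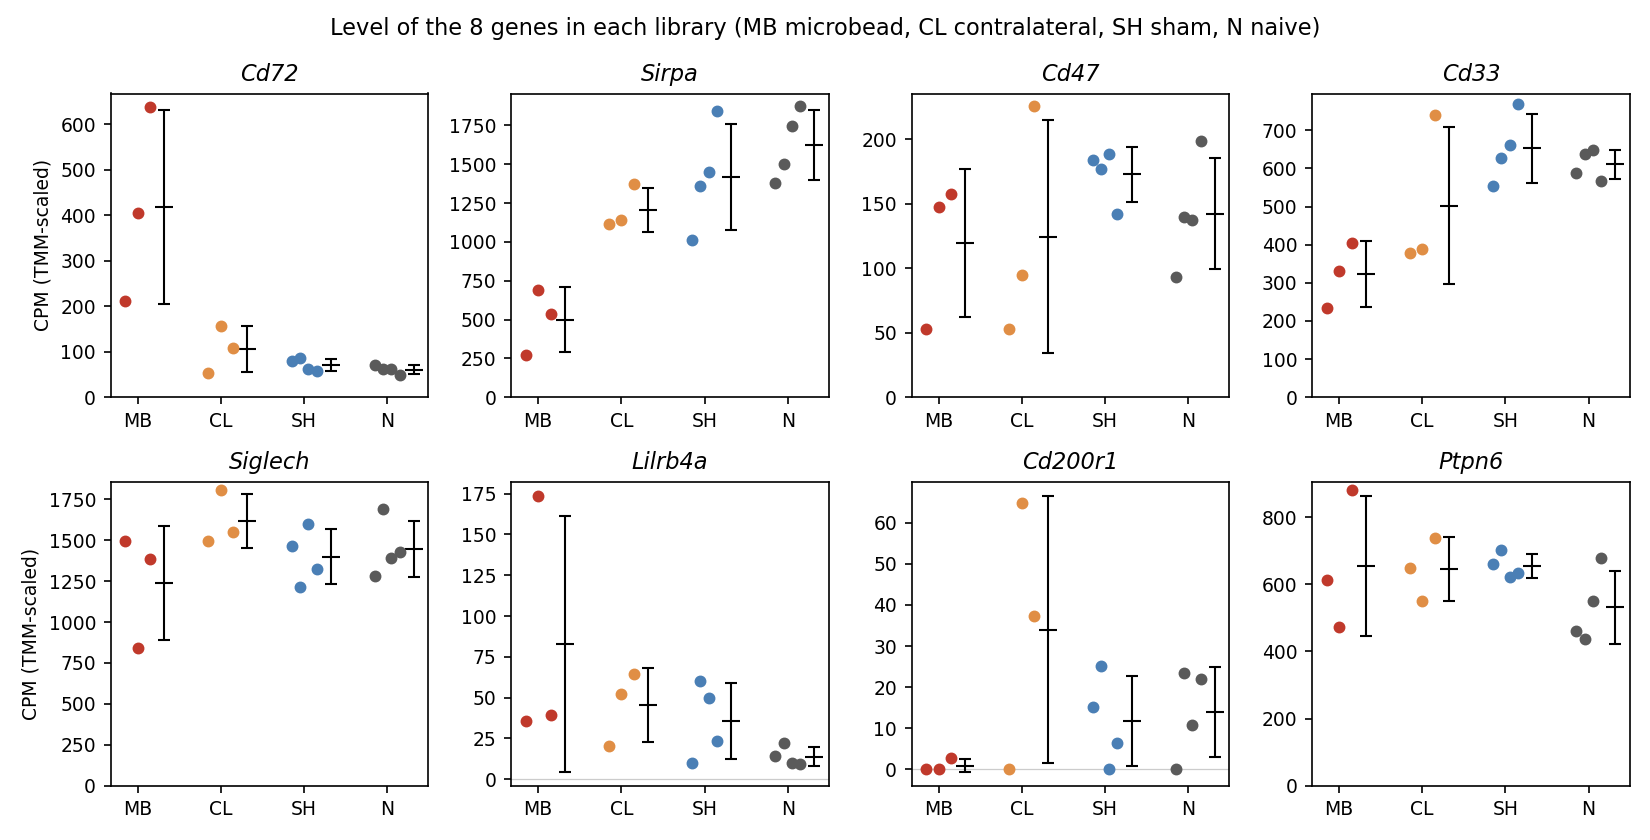
Level of each of the 8 genes in CPM (vertical axes, each from about 0, on a scale of its own) in microbead (MB), contralateral (CL), sham (SH) and naive (N) libraries. Points are libraries and bars are the mean ± SD. Cd72 lies at 211 to 638 CPM in the microbead libraries and at no more than 155 CPM in any other, and Sirpa at 274 to 688 CPM in the microbead libraries and at 1015 CPM or more in all others.

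Cd72 encodes a C-type lectin with an ITIM, best known on B cells, where it binds semaphorin 4D. Its gene lies at chr4:43446462-43454628 on the minus strand (mm10). Cd72 had 211, 405 and 638 CPM in the 3 microbead libraries, 53.8, 155 and 108 CPM in the contralateral, 78.5, 86.3, 62.4 and 58.5 CPM in the sham and 71.7, 61.8, 61.1 and 47.7 CPM in the naive libraries. All 3 microbead libraries stood above all 11 others, and contralateral libraries overlapped sham and naive ones. The log2 fold change of Cd72 in microbead was 2.55 against sham (SE 0.41, adjusted p = 0.0429), 2.79 against naive (SE 0.41, adjusted p = 0.00986) and 1.98 against contralateral retinas (SE 0.44, adjusted p = 0.0839), by edgeR's quasi-likelihood test with Benjamini-Hochberg adjustment over all genes. In the joint test among the 4 groups, Cd72 had an adjusted p of 0.00887 and was the 1 gene of the 8 to pass, where 0.224% of all genes did, and Sirpa had one of 0.0542.

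With the length trend removed, the log2 fold change of Cd72 was 2.57 against sham (adjusted p = 0.113), 2.76 against naive (adjusted p = 0.0333) and 1.55 against contralateral retinas (adjusted p = 0.264). Against sham the call ended without any single sham or naive library, where the log2 fold change ranged from 2.47 to 2.66 and the adjusted p from 0.0694 to 0.263. Against naive it ended without naive 1, 2 or 4, with log2 fold changes of 2.86, 2.78 and 2.69. Without microbead 1 and contralateral 2, the libraries of few genes, it was 2.84 against sham (adjusted p = 0.00245) and 2.67 against contralateral retinas (adjusted p = 0.0342).

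Markers of B cells, where Cd72 is best known, were read beside it, and their part in its level was not tested. Of 10 B cell markers 2 had reads in microbead libraries: Ighm, at 349 CPM against 490.0 in sham and 554 in naive, and Cd79b, at 52.4 CPM against 39.4 in sham and 24.2 in naive. Ms4a1, Fcer2a, Blk and Fcmr had no reads in any of the 14 libraries, and Cd79a and Pax5 none in microbead libraries. The summed level of the list was 158 to 584 CPM in the microbead libraries, 527 to 877 in the contralateral, 456 to 677 in the sham and 508 to 659 in the naive libraries.

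Sirpa encodes the receptor for CD47 and lies at chr2:129592835-129632228 on the plus strand. Sirpa had 274, 688 and 536 CPM in the microbead libraries, 1113, 1138 and 1370 CPM in the contralateral, 1015, 1360, 1447 and 1844 CPM in the sham and 1376, 1499, 1744 and 1875 CPM in the naive libraries. The microbead libraries lay below all others, and the contralateral libraries below all naive ones. Its log2 fold change in microbead was -1.50 against sham (SE 0.29, adjusted p = 0.0664), -1.70 against naive (SE 0.29, adjusted p = 0.0269) and -1.27 against contralateral retinas (SE 0.30, adjusted p = 0.103) in edgeR's test. In contralateral against naive retinas it was -0.43 (SE 0.28, adjusted p = 0.996).

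With a mean transcript of 3295 bases Sirpa was the longest of the 8 genes. With the length trend removed its log2 fold change against naive was -1.27 (adjusted p = 0.236), and against sham -1.09 (adjusted p = 0.432). The call against naive also ended without any 1 of the 4 naive libraries, at log2 fold changes of -1.79 to -1.62. Reads of its near-identical relatives Sirpb1a, Sirpb1b and Sirpb1c were few, at most 38 for any of them in a microbead library and 0 in naive libraries, against 381 or more for Sirpa.

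**Figure D2:**
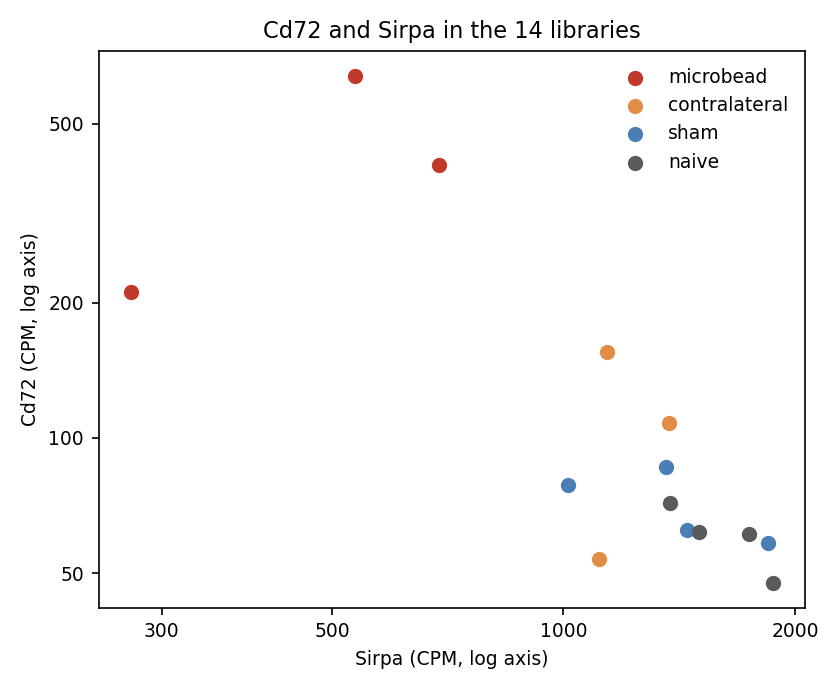
Cd72 against Sirpa in the 14 libraries, both in CPM on log axes, coloured by group. The 3 microbead libraries occupy the upper left, at 211 to 638 CPM of Cd72 and 274 to 688 CPM of Sirpa, and do not overlap any other group on either axis.

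Taken per transcript length, Cd72 stood above Sirpa in the microbead libraries and below it in all others. In FPKM, the authors' reads scaled to transcript length and mapped reads, the level of Cd72 was 1.54, 1.80 and 3.39 times that of Sirpa in the microbead libraries. The ratio was 0.129 to 0.431 in contralateral, 0.108 to 0.291 in sham and 0.0599 to 0.131 in naive libraries, so that Sirpa was the higher of the pair in all 11. The mean transcript is 1388 bases for Cd72 and 3295 bases for Sirpa, and the part of the short-transcript shift of the microbead libraries in this ratio was not tested. In CPM, which is not scaled to length, Sirpa was above Cd72 in microbead 1 and 2 and below it in microbead 3. Ordered by mean FPKM, Cd72 stood at rank 3 of the 8 genes in microbead libraries, at 332 ± 196 (SD, n = 3), and at rank 6 in naive libraries, at 57.8 ± 15.3 (n = 4). Sirpa stood at rank 5 in microbead libraries, at 143 ± 52.4 FPKM, and at rank 2 in naive libraries, at 581 ± 94.2 FPKM. In microbead libraries the range of Cd72 overlapped those of Ptpn6, Cd33, Sirpa and Lilrb4a. That of Sirpa also overlapped those of Cd33, Cd47 and Lilrb4a. In naive libraries the ranges of Sirpa and Ptpn6 overlapped, as did those of Cd72 and Cd47.

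Cd47 encodes the ligand that SIRPα reads, and it did not pass the test in any comparison. Cd47 had 53.1, 148 and 158 CPM in the microbead libraries, 52.7, 94.4 and 226 CPM in the contralateral, 184, 177, 188 and 142 CPM in the sham and 93.3, 139.8, 138 and 199 CPM in the naive libraries. Microbead libraries overlapped all 3 other groups, and microbead 1 and contralateral 1 were the lowest of the 14. Its log2 fold change was -0.53 against sham (SE 0.46), -0.25 against naive (SE 0.46) and -0.05 against contralateral retinas (SE 0.49), with adjusted p of 0.789, 0.936 and 0.989 in edgeR's test. Removal of the length trend gave -0.16 against sham and 0.10 against naive, where its sign turned. The ratio of Cd47 to Sirpa in FPKM was 0.141 to 0.589 in the microbead libraries, 0.0499 to 0.259 in the contralateral, 0.126 to 0.336 in the sham and 0.0925 to 0.192 in the naive libraries, and these ranges overlapped.

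Cd47 also had the most variable transcript length in the authors' tables, which weight the lengths of a gene's transcripts by their abundance. That length was 4815, 1611 and 1705 bases in the microbead libraries and 3327, 1631 and 1939 bases in the contralateral libraries. It was 1919 to 2352 bases in sham and 2054 to 2537 bases in naive libraries. The longest value rests on 74.4 reads, and the 3327 bases of contralateral 1 on 277 reads.

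Cd33 encodes a receptor for sialic acid whose human counterpart is known for variants linked to Alzheimer's disease. It lies at chr7:43524216-43544428 on the minus strand. Cd33 had 233, 332 and 405 CPM in the microbead libraries, 379, 388 and 739 CPM in the contralateral, 553, 627, 660.3 and 770 CPM in the sham and 589, 639, 647 and 567 CPM in the naive libraries. Microbead libraries lay below all sham and naive libraries and overlapped the contralateral ones. The log2 fold change was -1.01 against sham (SE 0.28, adjusted p = 0.164), -0.92 against naive (SE 0.28, adjusted p = 0.200) and -0.63 against contralateral retinas (SE 0.29, adjusted p = 0.425). With the length trend removed it was -0.59 against sham and -0.52 against naive.

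Siglech encodes the DAP12-coupled Siglec-H, a marker of microglia in the brain and of plasmacytoid dendritic cells elsewhere, and was the most abundant of the 8 genes per length in every group. It averaged 906 ± 234 FPKM in microbead (SD, n = 3), 1678 ± 145 in contralateral (n = 3), 1306 ± 108 in sham (n = 4) and 1343 ± 271 in naive libraries (n = 4). In CPM, Siglech had 1492, 844 and 1385 in the microbead libraries, 1498, 1807 and 1549 in the contralateral, 1462, 1214, 1598 and 1322 in the sham and 1282, 1688, 1393 and 1428 in the naive libraries. Microbead overlapped sham and naive and lay below contralateral libraries by a narrow margin. The log2 fold change was -0.17 against sham (SE 0.22), -0.22 against naive (SE 0.22) and -0.38 against contralateral retinas (SE 0.24), with adjusted p of 0.893, 0.819 and 0.540. The sign turned against both once the length trend was removed, at 0.13 against sham and 0.03 against naive. Of 8 markers of plasmacytoid dendritic cells, Ly6d, Klk1 and Cd209d had no reads in any library, and the list summed to at most 26.4 CPM.

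Lilrb4a encodes an ITIM receptor of myeloid cells. The authors' table gives this name to the identifier ENSMUSG00000062593, which GENCODE M21 names Gm49339, and GENCODE M21 uses the name Lilrb4a for another identifier at the same place. The values below belong to the authors' identifier, and reads of the near-identical pair cannot be separated. Lilrb4a had 35.9, 174 and 39.5 CPM in the microbead libraries, 20.3, 52.3 and 64.2 CPM in the contralateral, 9.93, 60.4, 49.7 and 23.3 CPM in the sham and 14.4, 22.3, 9.79 and 9.29 CPM in the naive libraries. Microbead libraries stood above all naive libraries and overlapped sham and contralateral ones, and microbead 2 was the highest of the 14. The log2 fold change was 2.58 against naive (SE 0.75, adjusted p = 0.171), 1.22 against sham (SE 0.73, adjusted p = 0.611) and 0.87 against contralateral retinas (SE 0.79, adjusted p = 0.714). Without microbead 2 it was 1.41 against naive, 0.05 against sham and -0.25 against contralateral retinas. It was 2.60 against naive and 1.29 against sham with the length trend removed.

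Cd200r1, the receptor for CD200, was the scarcest of the 8 genes. Cd200r1 had 0, 1 and 31 reads in the microbead libraries, 0, 411 and 583 in the contralateral, 137, 358, 0 and 89 in the sham and 0, 312, 135 and 269 in the naive libraries. A library without reads occurred in every group, and microbead 1, with 0, was also the shallowest library. The log2 fold change in edgeR's test was -3.45 against sham (SE 2.10), -3.71 against naive (SE 2.13) and -4.99 against contralateral retinas (SE 2.31), with adjusted p of 0.619, 0.557 and 0.426. Cd200, its ligand, was almost without reads in these sorted cells, at a mean of 0.00569 CPM over the 14 libraries.

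Ptpn6 encodes SHP-1, the phosphatase that many ITIM receptors recruit. Ptpn6 had 612, 472 and 882 CPM in the microbead libraries, 649, 549 and 738 CPM in the contralateral, 659.6, 703, 621 and 635 CPM in the sham and 462, 436, 549 and 679 CPM in the naive libraries. The groups overlapped, with log2 fold changes of 0.00 against sham (SE 0.25), 0.30 against naive (SE 0.25) and 0.02 against contralateral retinas (SE 0.27). The adjusted p-values were 1.00, 0.739 and 0.993. Ptpn6 stood at 0.37 against sham (adjusted p = 0.737) and 0.62 against naive (adjusted p = 0.512) with the length trend removed.

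**Figure D3:**
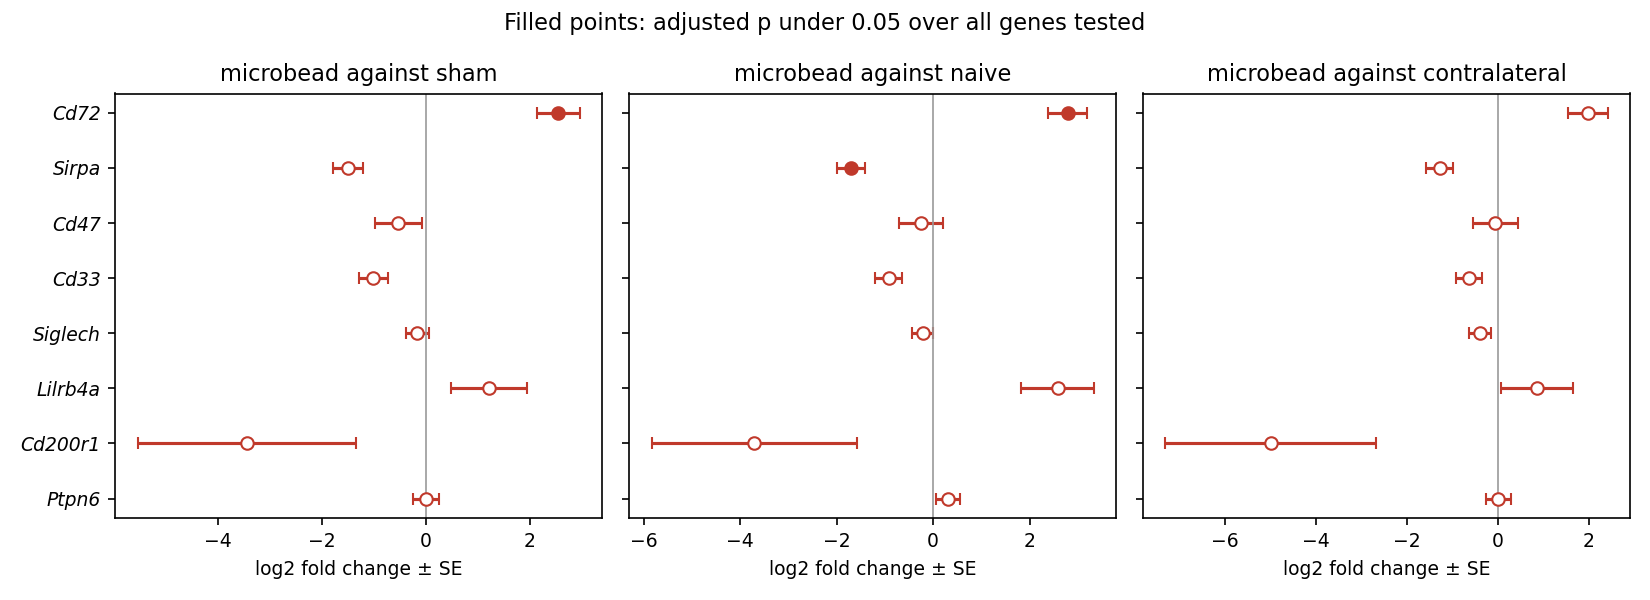
Log2 fold change ± SE of the 8 genes in microbead against sham, naive and contralateral retinas (horizontal axes). Filled points passed an adjusted p of 0.05 over all genes, which Cd72 did against sham and naive and Sirpa against naive.

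Counted over the list, 1 of 8 genes passed in microbead against sham and 2 of 8 against naive, where 0.014% and 0.21% of all genes did, and 0 of 8 against contralateral retinas, where 0.028% did. Since the list was chosen on such results, nothing is read from this count. In microbead against contralateral retinas, 4 of the 8 genes had an unadjusted p under 0.05 in edgeR's test, as did 11.5% of all genes, and DESeq2 called 2. Over the alternative settings, up to 666 of all genes were called in that comparison, so nothing is read from the DESeq2 count. Groups did not overlap for 3 genes against sham, 4 against naive and 3 against contralateral retinas, where 12.2%, 11.8% and 10.8% of all genes separated. The median log2 fold change of the 8 genes was -0.35, -0.24 and -0.22 in the same comparisons, beside -0.12, -0.14 and -0.08 over all genes. These comparisons share the microbead libraries.

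Contralateral retinas were also compared with sham and naive retinas, and sham with naive. None of the 8 genes passed in contralateral against sham, contralateral against naive or sham against naive, where 0% of all genes did; DESeq2 called 0. The unadjusted p was under 0.05 in edgeR's test for 0, 1 and 0 of the 8, beside 4.86%, 5.18% and 2.66% of all genes. The 1 gene was Lilrb4a, at 1.71 on the log2 scale against naive (SE 0.73, adjusted p = 0.949), and it was also 1.36 in sham against naive (SE 0.69, adjusted p = 1.00). Sirpa was the only member whose contralateral and naive libraries did not overlap, where 6.21% of all genes separated. In contralateral against sham and in sham against naive, 0 of the 8 separated, beside 5.92% and 2.98% of all genes. Cd72 was 0.80 higher on the log2 scale in contralateral than in naive libraries (SE 0.40, adjusted p = 0.955), with overlapping groups.

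The promoters of 5 of the 8 genes (Cd72, Cd47, Cd33, Siglech and Ptpn6) are in RefSeq's table for GRCm38.p6. The 250 bases before the start were searched on both strands for GAGGAA, the core bound by PU.1, a factor that macrophages depend on. Matches lay in Cd72 and Cd33, and in none of the other members' windows, against 23.25% of 32851 promoters. RefSeq's start of Cd33 lies inside the longer gene of GENCODE M21. Both windows are on the minus strand, at chr4:43454627-43454876 for Cd72 and chr7:43533172-43533421 for Cd33, printed with the match in capitals; that of Cd72 reads TTCCTC because it is on the opposite strand. The match in Cd72 is part of the longer ACTTCCTC, the reverse of GAGGAAGT, which 2.44% of promoters hold.
Cd72: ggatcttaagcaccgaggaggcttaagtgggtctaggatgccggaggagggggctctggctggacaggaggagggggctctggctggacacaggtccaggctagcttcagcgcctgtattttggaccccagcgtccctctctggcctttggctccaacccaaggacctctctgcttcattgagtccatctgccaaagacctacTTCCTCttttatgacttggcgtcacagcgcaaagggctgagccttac
Cd33: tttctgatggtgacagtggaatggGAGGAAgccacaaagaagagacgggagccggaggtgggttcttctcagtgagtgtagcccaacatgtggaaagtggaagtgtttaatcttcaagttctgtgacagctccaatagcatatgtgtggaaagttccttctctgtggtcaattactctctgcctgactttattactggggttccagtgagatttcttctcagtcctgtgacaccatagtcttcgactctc
The log2 fold changes of Cd72 and Cd33 in microbead retinas were opposite in sign, and a match shows letters only, not a bound factor.

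The other genes of the pathway were followed through a list of 50 genes, of which 43 passed the filter on low counts. Of these, 0 passed the test in microbead against sham, 1 higher and 0 lower against naive, and 0 against contralateral retinas. DESeq2 called 4, 6 and 6 of them in the same comparisons, an alternative chosen after seeing the data. Over the alternative settings, up to 471, 574 and 666 of all genes were called in these comparisons, so nothing is read from these counts. At an unadjusted p under 0.05 in edgeR's test, 4 were higher and 5 lower against sham, 10 higher and 3 lower against naive, and 7 higher and 8 lower against contralateral retinas. Of all genes 9.75%, 10.5% and 11.5% had such a p in these comparisons. Their median log2 fold change was 0.32, 0.50 and 0.21 in the 3 comparisons.

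Among 16 measured genes listed as ITIM receptors, Havcr2 included, 0 passed the test in any of the 3 comparisons. Against naive 4 were higher and 1, Havcr2, lower at an unadjusted p under 0.05. Cd300lf, an inhibitory receptor for phospholipids, averaged 119 ± 16.7 CPM in microbead (SD, n = 3) and 10.6 ± 4.26 CPM in naive libraries (n = 4). The difference on the log2 scale was 3.49 (SE 0.95, adjusted p = 0.138). Milr1, an inhibitory receptor of mast cells and other myeloid cells, averaged 151 ± 30.3 CPM in microbead and 52.4 ± 13.3 CPM in sham libraries (1.52, SE 0.40, adjusted p = 0.137). For both genes the microbead libraries stood above all libraries of the other 3 groups. Pilra, an ITIM receptor of myeloid cells, had a log2 fold change of 1.76 against naive (adjusted p = 0.136), and Fcgr2b, the inhibitory IgG receptor, one of 1.05 (adjusted p = 0.300). Havcr2, which encodes TIM-3, an inhibitory receptor without an ITIM, had one of -1.32 (adjusted p = 0.171), while Lair1, a collagen receptor, stood at -0.03 (adjusted p = 0.990). After removal of the length trend, Cd300lf stood at 4.03, Havcr2 at -0.86 and Lair1 at 0.54 against naive.

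Of the 4 measured ligand genes and the 6 measured kinase genes, 0 passed. Against naive, at an unadjusted p under 0.05, 1 ligand gene was lower, and among the kinase genes 1 was higher and 1 lower. Sema4d, the ligand of CD72, averaged 126 ± 74.7 CPM in the microbead libraries, 348 ± 88.7 in the contralateral, 279.6 ± 30.6 in the sham and 246 ± 67.1 in the naive libraries. Its log2 fold change was -1.14 against sham (adjusted p = 0.358), -0.95 against naive (adjusted p = 0.425) and -1.45 against contralateral retinas (adjusted p = 0.188), opposite in sign to that of its receptor. Log2 fold changes against sham were positive for 3 of the 6 kinase genes and negative for 3. Lyn, a kinase that phosphorylates ITIMs, stood at -1.22 against sham (adjusted p = 0.302), and Btk at -0.84 (adjusted p = 0.479). Lgals9, a ligand of TIM-3, was at 0.39 (adjusted p = 0.770). Sema4d, with the length trend removed, was at -0.80 against sham, -0.56 against naive and -1.72 against contralateral retinas. Against sham, Lyn was then at -0.82 and Btk at -0.16. Against contralateral retinas Btk stood at -1.33 as counted (adjusted p = 0.204 in edgeR's test) and at -1.24 with the trend removed. Against naive it was at -0.34 as counted and at 0.32 with the trend removed.

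Of 9 measured phosphatase and adaptor genes 0 passed, and against naive 1 was higher at an unadjusted p under 0.05. Inpp5d, which encodes the phosphatase SHIP-1, averaged 540 ± 19.8 CPM in the microbead libraries, 893 ± 145 in the contralateral, 717 ± 100.2 in the sham and 746 ± 125 in the naive libraries, and every microbead library lay below every other library. Its log2 fold change was -0.41 against sham (adjusted p = 0.561) and 0.19 with the length trend removed. Against contralateral retinas it was -0.73 (adjusted p = 0.254 in edgeR's test), and -0.61 with the trend removed. Ptprc, which encodes CD45, had 1494, 499 and 369 CPM in the microbead libraries, against 410 to 536 CPM in the sham libraries, so that microbead 1 alone stood above the sham range. Its log2 fold change against sham was 0.75 (adjusted p = 0.512), and 1.44 once the length trend was removed (adjusted p = 0.487). Leaving out microbead 1 gave -0.13.

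Fcer1g was the only gene of the list to pass edgeR's test, and only against naive retinas. It encodes the ITAM-bearing gamma chain of Fc receptors and had 4628, 1509 and 1825 CPM in the microbead libraries, with microbead 1 far above the other two. It averaged 2654 ± 1717 CPM in the microbead libraries, 1045 ± 304 in the contralateral, 860.2 ± 61.2 in the sham and 832 ± 82.5 in the naive libraries, and its log2 fold change against naive was 1.67 (SE 0.31, adjusted p = 0.0343). The call against naive ended without microbead 1, at 0.98 (adjusted p = 0.0866), and without any single sham or naive library, settings chosen after seeing the data. Tyrobp, which encodes DAP12, the adaptor of Siglec-H, averaged 2013 ± 1066 CPM in microbead and 892 ± 67.1 in sham libraries (1.17, SE 0.31, adjusted p = 0.143), and its log2 fold change against sham was 0.62 without microbead 1. Both transcripts are short, at 673 and 576 bases. With the length trend removed, Fcer1g stood at 0.78 against naive (adjusted p = 0.441) and Tyrobp at 0.05 against both sham and naive. Trem2, an activating receptor that uses DAP12, stood at 0.25 against sham (adjusted p = 0.808), and Sirpb1c had 10 to 38 reads in microbead and 0 reads in naive libraries.

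**Figure D4:**
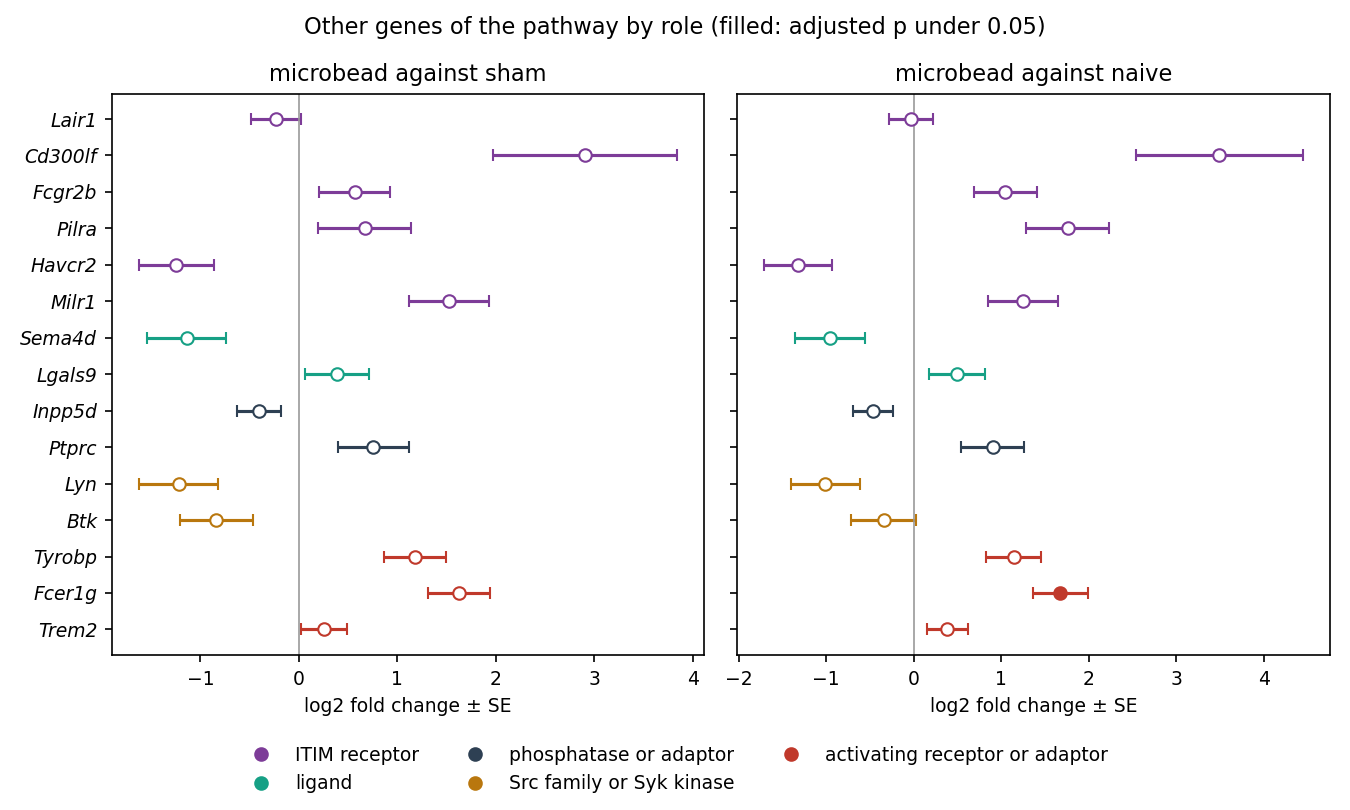
Log2 fold change ± SE in microbead against sham and naive retinas (horizontal axes) for 15 genes of the pathway, coloured by role; Sirpb1c, without reads in naive libraries, is left out. The single filled point is Fcer1g against naive, at 1.67. Havcr2 is coloured with the ITIM receptors.

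**Figure D5:**
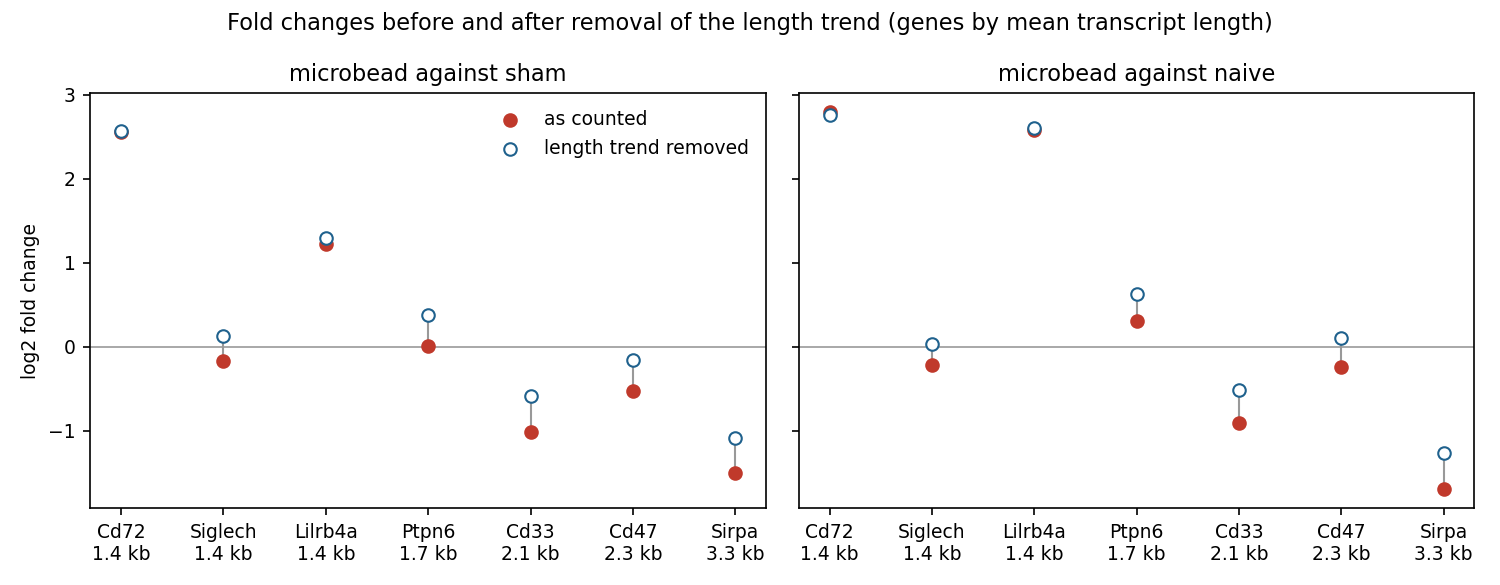
Log2 fold changes of 7 of the 8 genes in microbead against sham and naive retinas, ordered by mean transcript length, as counted and after removal of the length trend. Cd72 stays at 2.57 against sham and 2.76 against naive, while Sirpa moves to -1.09 and -1.27. Cd200r1 is not drawn.

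The summed level of monocyte markers in the microbead libraries lay above that of all naive libraries and overlapped contralateral and sham libraries, and its part in these results was not tested. Of 10 markers 7 had reads, with a sum of 77.6 to 185 CPM in the microbead libraries, 14.98 to 161 in the contralateral, 18.5 to 107 in the sham and 2.17 to 49.8 in the naive libraries. Ly6c2 and Chil3, which mark classical monocytes, had no reads in any library, and the cells were sorted as Ly6c-. Fn1 averaged 49.9 CPM in microbead and 0 in naive libraries, Cd44 41.9 and 2.34, and S100a4 18.0 and 0. Ccr2 had means of 15.7 and 2.70 CPM in these groups, and Plac8 of 1.35 and 0. F13a1, at 0.03 and 7.04 CPM, and Itga4, at 3.8 and 4.36 CPM, went the other way. Border macrophage markers summed to 222 to 332 CPM in the microbead libraries, 690 to 1052 in the contralateral, 397 to 546 in the sham and 380.3 to 542 in the naive libraries. Stab1 alone averaged 181 CPM in the microbead, 712 in the contralateral, 353 in the sham and 369 in the naive libraries. Ms4a7 of the same list went the other way, at 95.4, 29.2, 32.8 and 32.7 CPM in these groups.

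Among the genes compared, those whose pattern over the 14 libraries was closest to that of Cd72 were Cd63, Ctsl, Fcgr4, Ndufa12 and Rpl19. Likeness was the mean absolute difference of log2 CPM, each gene centred on its own mean. It was taken over 8129 genes with a mean of at least 10 CPM, without predicted genes and pseudogenes. It was 0.33 for Cd63 and 0.52 to 0.53 for the other 4, beside a median of 1.32 over all genes compared. Cd63, a lysosomal membrane protein gene, averaged 792 ± 120.2 CPM in microbead and 199.7 ± 3.14 CPM in naive libraries. For Sirpa they were Ivns1abp (0.24), Ints6l (0.26), Rprd2 (0.29), Lcp1 (0.30) and Rnase4 (0.30), beside a median of 0.98. Libraries share a preparation and the length trend, so likeness is a description.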

How the data were processed

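Gene expression was measured in 14 libraries of sorted retinal microglia. Each library has a table of expected counts, which per the file headers are estimated reads per gene without scaling, and of FPKM, scaled by the authors to transcript length and mapped reads. A series-wide table deposited by the authors repeats the FPKM and gives symbols. The submitters' processing notes list mm10, DESeq2 1.30.1, Salmon 1.4.0 and R 4.0.3, without roles.

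Expected counts were rounded and fitted in R 4.3.3 with edgeR 4.0.16: filterByExpr (minimum count 10), TMM, 1 robust quasi-likelihood model (glmQLFit, glmQLFTest) over 4 groups, two-sided, Benjamini-Hochberg over 14279 genes, threshold 0.05. Residual degrees of freedom were 10, and the common biological coefficient of variation was 1.13. Alternatives used limma 3.58.1 and DESeq2 1.42.0. The length trend of a library was a lowess fit (span 0.5) against log2 transcript length, subtracted by means of offsets. It was fitted to deviations of log2 CPM from each gene's mean over the libraries, in genes with a mean of at least 10 CPM. The edgeR fit was checked on simulated data. Coordinates are from GENCODE M21, matched by identifier without version. The pathway genes named in the text passed the test or had an unadjusted p under 0.01 in a microbead comparison, or were the 2 most abundant of their role. A gene that meets this rule and some markers are not reported here. The members, lists, tests and alternatives were chosen with earlier results of these data known. Reads carry no molecular identifiers.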

Additional observations from a re-analysis of the deposited data

How the results depend on the processing

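Cd72 in microbead retinas kept its direction in all 26 alternatives against sham (log2 fold change 1.82 to 2.84, past the threshold in 13), against naive (2.33 to 3.08, in 20) and against contralateral retinas (1.55 to 2.67, in 4). Sirpa kept its direction against naive (-2.08 to -1.27, in 19) and against sham (-1.86 to -1.09, in 7). Over all 6 comparisons and 8 genes, 57 of 1248 values changed sign, none past the threshold (smallest adjusted p 0.471).

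The number of the 8 genes called moved as follows, and the cause was not tested. The number of all genes called moved too, as given below, so nothing about the 8 genes is read from these counts. Against sham, where it was 1, it was 2 with no filter, 3 with DESeq2, 2 with limma voom, and 0 with log2(FPKM + 1) or log2(FPKM + 0.1), with the compared groups only, and with the length trend removed; leaving out each library gave 0 to 2. Against naive, where it was 2, it was 4 with DESeq2, 1 with either FPKM scale, with the compared groups only or with the length trend removed, and 0 to 2 leaving out each library. Against contralateral retinas, where it was 0, it was 2 with no filter, 2 with DESeq2, 1 without the libraries under 12000 genes and 0 to 1 leaving out each library. In the joint test, where it was 1, it was 2 with the size factors of DESeq2, with no filter, with at least 50 reads or with DESeq2, 0 with either FPKM scale, and 1 to 2 leaving out each library. The pathway count was 0 against sham, 1 against naive and 0 against contralateral retinas. Against naive it was 0 with the length trend removed. With 2 alternatives chosen after seeing the data, it was 4, 6 and 6 with DESeq2, and 0 to 1, 0 to 2 and 0 to 2 leaving out each library.

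With the replicate number as a block, 0 of the 8 genes passed against sham, against naive and in the joint test. Deviations of same-numbered libraries correlated at -0.05 to 0.11, which cannot show whether such libraries share a mouse.

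Over the same alternatives, the number of all genes called ran from 0 to 471 against sham, 0 to 574 against naive and 0 to 666 against contralateral retinas. In the joint test it ran from 1 to 478. The shallowest library, microbead 1, holds 1.34 M reads, which limits what can be said of Cd200r1.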
